A study of Homo sapiens with 45 samples.

Results

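Interferon-stimulated genes are the genes that cells switch on when an interferon reaches its receptor, and 40 of them are described here in HCT116 cells after depletion of HNRNPK. The members were matched by gene symbol, and all 40 were among the 28278 names in the table of 8 libraries. HCT116 is an established human colon cancer cell line, and HNRNPK encodes heterogeneous nuclear ribonucleoprotein K, which binds RNA and single-stranded DNA. Cells were transfected with siRNA at 25 nM and collected after 72 hours. The control group, siNTC5, received a nontargeting siRNA and had 4 RNA libraries; the depleted group received HNRNPK siRNA and had 4. In both groups RNA came from the same purification system, replicates 1 and 2 were made with the TruSeq stranded mRNA kit and replicates 3 and 4 with the Stranded mRNA Ligation kit. A separate set of 2 nontargeting libraries, named Scramble, was purified with a Qiagen RNeasy kit, made with TruSeq and counted in tables of its own. The labels give no untransfected cells and no interferon treatment, and they do not say whether replicates came from separate cultures, so p-values measure the spread between these libraries, which may be technical.

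Type I interferons bind the IFNAR1 and IFNAR2 receptor chains and type III interferons bind IFNLR1 and IL10RB. Both activate the kinases JAK1 and TYK2, which phosphorylate STAT proteins, among them STAT2, which joins IRF9 in the complex ISGF3. ISGF3 binds a sequence called the interferon-stimulated response element in the promoters of its targets. The target proteins detect viral RNA, degrade or modify RNA, block viral entry or release, or attach the ubiquitin-like protein ISG15 to other proteins. Many of these genes have a low level without interferon, and IRF1, or IRF3 and IRF7 downstream of RNA and DNA sensors, can drive some of them as well.

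The promoter stretches of 8 members are shown because 7 of them hold letters of the element to which ISGF3 binds, 1 does not, and their genes responded differently. Each runs 5′ to 3′ on the gene's own strand from 150 bases before to 10 bases after the RefSeq start (GRCh38.p14). Capitals mark matches to GAAANNGAAA on either strand; a match on the other strand is printed as its reverse complement. DDX60 and DDX60L had the lowest adjusted p of the members and each shows 2 matches. IFI44 (its downstream start) and IFITM1 also rose. ISG15 and IFIT1, with 2 matches each, and OAS3, the only member that fell, show the same letters without a rise, and OAS1 rose with no match in the stretch.
DDX60: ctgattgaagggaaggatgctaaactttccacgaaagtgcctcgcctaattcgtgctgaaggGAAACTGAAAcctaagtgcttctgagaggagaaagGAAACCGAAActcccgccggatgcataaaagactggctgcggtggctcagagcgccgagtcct
DDX60L: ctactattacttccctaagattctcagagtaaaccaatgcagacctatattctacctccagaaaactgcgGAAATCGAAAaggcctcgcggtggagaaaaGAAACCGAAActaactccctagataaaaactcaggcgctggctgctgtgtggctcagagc
IFI44: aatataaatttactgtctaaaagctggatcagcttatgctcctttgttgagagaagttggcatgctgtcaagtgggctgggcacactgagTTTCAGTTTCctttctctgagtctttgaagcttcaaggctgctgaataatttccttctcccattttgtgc
IFITM1: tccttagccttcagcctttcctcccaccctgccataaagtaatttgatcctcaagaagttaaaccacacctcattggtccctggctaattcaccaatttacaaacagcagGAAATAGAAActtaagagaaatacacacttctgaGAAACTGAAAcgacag
ISG15: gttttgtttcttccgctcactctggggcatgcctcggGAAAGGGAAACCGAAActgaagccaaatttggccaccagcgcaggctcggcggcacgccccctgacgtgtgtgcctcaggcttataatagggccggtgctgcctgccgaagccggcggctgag
IFIT1: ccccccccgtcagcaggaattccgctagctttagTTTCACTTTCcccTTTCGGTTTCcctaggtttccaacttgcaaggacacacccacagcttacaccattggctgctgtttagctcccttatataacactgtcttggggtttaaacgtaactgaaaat
OAS3: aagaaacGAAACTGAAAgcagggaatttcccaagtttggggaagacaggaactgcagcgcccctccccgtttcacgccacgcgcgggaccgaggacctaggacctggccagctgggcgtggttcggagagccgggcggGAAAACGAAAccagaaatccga
OAS1: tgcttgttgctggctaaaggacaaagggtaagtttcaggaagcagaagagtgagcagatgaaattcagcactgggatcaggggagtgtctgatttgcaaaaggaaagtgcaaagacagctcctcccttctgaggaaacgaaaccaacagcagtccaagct
The stretches lie at chr4:168318743-168318902 on the minus strand for DDX60, chr4:168480483-168480642 on the minus strand for DDX60L and chr1:78649681-78649840 on the plus strand for IFI44. Those of IFITM1 and ISG15 lie at chr11:313890-314049 on the plus strand and chr1:1013347-1013506 on the plus strand. That of IFIT1 lies at chr10:89392473-89392632 on the plus strand, that of OAS3 at chr12:112938324-112938483 on the plus strand and that of OAS1 at chr12:112906812-112906971 on the plus strand.

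RefSeq windows from 250 bases before to 50 bases after a start were at hand for 32 of the 40 members. At least 1 match to GAAANNGAAA was found for 24 of these 32 members (75%), against 4.38% of 27305 gene symbols with such windows and 3.76% of the tested genes. In 23 of the 24 members a match lay before the start. The letters did not separate the members by response: 12 of 16 members that rose held a match, as did 7 of 8 that were tested and not called, 4 of 7 that were too low to test, and OAS3. The gamma-activated site, TTCNNNGAA, which reads alike on both strands and is a sequence bound by STAT dimers, was found for 9 of 32 members (28.1%) against 9.38% of all symbols. DDX60, IFITM1, BST2, IRF1, OAS1 and PARP14 were the members with this match that rose. The windows with no match, such as those of OAS1, STAT2, IRF1 and HERC6, say only that these letters are not within that stretch.

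Total counts were between 12107280 and 23633851 in the 8 libraries and 59209169 and 55007171 in the Scramble libraries. HNRNPK itself stood at 884 ± 78.0 CPM (counts normalised for library size by TMM; SD, n = 4) in siNTC5 and 199 ± 45.3 CPM (SD, n = 4) after HNRNPK siRNA, or 22.4% of the control level. The exact permutation p (two-sided) was 0.0286, the lowest possible with 4 libraries in each group. Of the 8 colon epithelium markers examined, EPCAM, CDH1, KRT8, KRT18 and CDX2 were counted. In the 8 libraries of the knockdown comparison VIL1 had at most 6 counts, CDX1 at most 1 and KRT20 0. KRT20 had 117 and 96 counts in the Scramble libraries, so its 0 cannot be read as absence. The summed level of the 8 markers was 2095 to 2271 CPM in siNTC5 and 4130 to 5046 CPM after HNRNPK siRNA. Most of it was KRT8 and KRT18, while CDX2 had 201 to 248 counts against 122 to 192. Among 6 leukocyte markers, CD3E was at 0 and PTPRC had at most 2 counts in any of the 8 libraries. Their summed level was 18.9 to 26.3 CPM in siNTC5 and 29.5 to 35.3 CPM after HNRNPK siRNA, most of it CD68, with ITGAM at 19 to 36 counts against 84 to 109. The sum of 4 fibroblast markers was 44.5 to 73.1 CPM in siNTC5 and 75.1 to 122 CPM after HNRNPK siRNA. Most of it was COL1A1, while PDGFRB had 9 to 23 counts against 4 to 10. The sum of 3 endothelial markers was 0.602 to 1.00 CPM against 1.48 to 3.30 CPM. The part of these marker lists in the results that follow was not tested.

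The main comparison asked how the interferon-stimulated genes responded to HNRNPK depletion. Their response was mixed in size and mostly upward: DDX60, IFI44, OAS1, IFITM1 and DDX60L rose between 2.82-fold and 4.90-fold, while ISG15, IFIT1, IFIH1 and USP18 were not called and OAS3 fell. Of the 40 members, 30 passed the filter on low counts and entered the edgeR fit, which has a term for library kit, and 10 were too low to test. An adjusted p under 0.05 was reached by 19 of the 30 (63.3%), against 71.5% of the 13933 genes tested. Of these, 18 were higher, where 35.5% of all tested genes were called higher, and 1 was lower, where 36.1% were called lower. A log2 change (the log2 of the fold change) of at least 1 with a higher call was reached by 9 of the 30 (30%), against 7.47% of all tested genes, and the median log2 change was 0.33 over the 30 members against -0.004 over all genes. In 16 members every library after HNRNPK siRNA was above every siNTC5 library, in 1 every library was below, and 56.5% of all tested genes had groups that did not overlap. The filter needs enough counts in 4 libraries, and OAS1, IFI44, BST2 and IFITM1 passed it only through the depleted group, where they are high. Without these 4, 15 of 26 members were called, 14 higher and 1 lower, and 5 had a log2 change of at least 1. The share of all genes after the same exclusion was not counted, so these counts do not set the members apart.

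The summed level of the 40 members was 804, 770, 841 and 851 CPM in siNTC5 libraries 1 to 4, and 1079, 1094, 1228 and 1208 CPM after HNRNPK siRNA. IFITM2 and IFITM3, which are close copies of each other, made up a large part of it. Without them the sums were 511, 536, 521 and 528 CPM in siNTC5 and 770, 793, 831 and 781 CPM after HNRNPK siRNA. The groups did not overlap on either sum. DDX60 and DDX60L carried 81.0% of the rise in the sum without IFITM2 and IFITM3, and the remaining members summed to 417 to 433 CPM in siNTC5 and 459 to 490 CPM after HNRNPK siRNA.

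**Figure D1:**
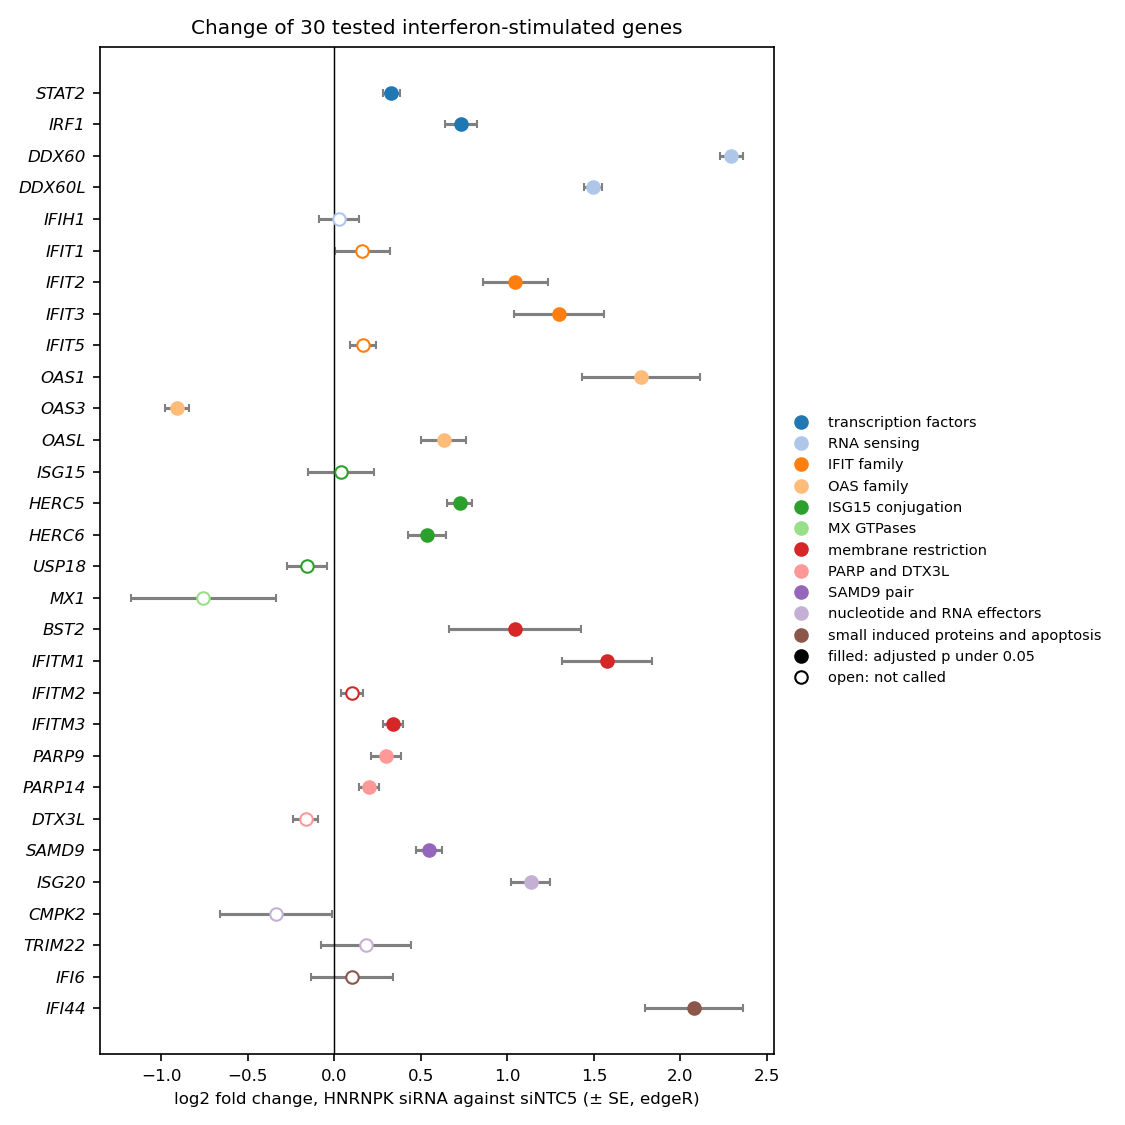
Log2 changes of the 30 tested members after HNRNPK siRNA against siNTC5 (x axis, points with SE from edgeR, 8 libraries), ordered and coloured by role; filled points passed an adjusted p of 0.05. DDX60 stands highest at 2.29 and OAS3 lowest at -0.91, and 18 of the 19 filled points are above 0.

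The transcription factors come first in the pathway. STAT2, a subunit of ISGF3, was at 70.7, 73.6, 80.01 and 83.0 CPM in siNTC5 libraries and 96.0, 93.1, 98.3 and 97.5 CPM after HNRNPK siRNA. All 4 depleted libraries were above all controls, and the rise was small, with a log2 change of 0.33 ± 0.05 (SE; adjusted p = 7.63e-06, edgeR). IRF1, a factor induced by interferons that activates many of the same promoters, read 18.1, 22.7, 19.1 and 16.5 CPM in siNTC5. After HNRNPK siRNA it read 29.1, 31.0, 33.0 and 34.6 CPM, a log2 change of 0.73 ± 0.09 (SE; adjusted p = 1.26e-06, edgeR), again without overlap. IRF9, the DNA-binding subunit of ISGF3, was listed at 0 in all 8 libraries, and IRF7, which drives interferon genes, had between 0 and 9 counts. Neither could be tested here, and both were counted in the Scramble libraries, as given further on.

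Of the genes that sense viral RNA or assist sensing, the helicase-like paralogs DDX60 and DDX60L rose and IFIH1 was not called. DDX60 read 16.5, 17.6, 13.9 and 15.2 CPM in siNTC5 and 77.6, 79.5, 79.9 and 73.7 CPM after HNRNPK siRNA. Its 4.90-fold rise (log2 2.29 ± 0.07, SE; adjusted p = 7.29e-15, edgeR) left a wide gap between groups. DDX60L read 77.4, 85.6, 90.1 and 92.1 CPM in siNTC5 and 233, 245, 261 and 232 CPM after HNRNPK siRNA, a log2 change of 1.49 ± 0.05 (SE; adjusted p = 2.98e-14, edgeR). The genes are neighbours on chromosome 4 (DDX60 at chr4:168216294-168325979) and similar in sequence, so reads could be shared between them. IFIH1, which encodes the sensor MDA5, was at 10.3 ± 1.00 CPM (SD, n = 4) in siNTC5 and 10.6 ± 1.68 CPM (SD, n = 4) after HNRNPK siRNA.

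**Figure D2:**
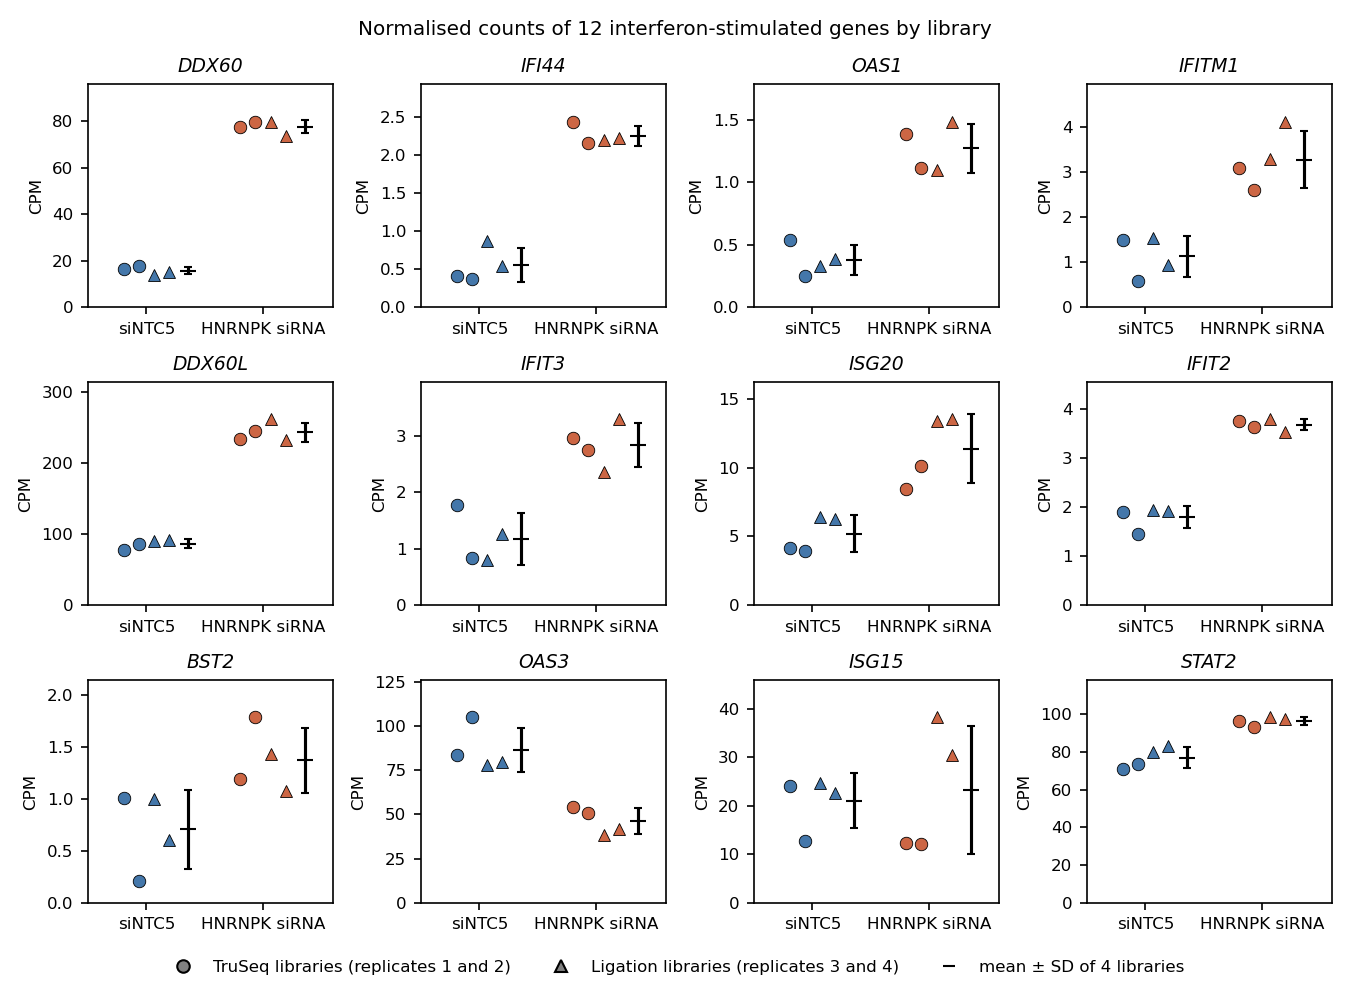
Normalised counts (CPM, y axes from 0) of 12 members in each siNTC5 and HNRNPK siRNA library, circles for TruSeq and triangles for Ligation libraries, with the mean ± SD of 4 libraries beside each group. The first 9 panels are the members with a log2 change of at least 1, whose groups do not overlap; in ISG15 the triangles after HNRNPK siRNA lie above all other points and the circles below.

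The IFIT proteins bind foreign RNA that lacks the usual cap modifications. IFIT2 read 1.90, 1.46, 1.93 and 1.92 CPM in siNTC5 and 3.76, 3.64, 3.79 and 3.54 CPM after HNRNPK siRNA, and IFIT3 read 1.78, 0.835, 0.799 and 1.26 CPM against 2.97, 2.75, 2.36 and 3.30 CPM. Both groups were apart in both genes, with log2 changes of 1.05 ± 0.19 (SE; adjusted p = 5.53e-05, edgeR) and 1.30 ± 0.26 (SE; adjusted p = 0.000183, edgeR). Their neighbours on chromosome 10 were not called: IFIT1 was at 3.72 ± 0.37 CPM (SD, n = 4) against 4.15 ± 0.53 CPM (SD, n = 4), with overlapping groups. IFIT5 had an adjusted p of 0.0579 (edgeR) at a log2 change of 0.16, and passed in 7 of 18 alternatives, among them without siNTC5 replicate 2 (adjusted p = 0.0234) and without HNRNPK siRNA replicate 1 (adjusted p = 0.0234). All 4 genes overlap LIPA in RefSeq, and the strand counted is not stated.

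The oligoadenylate synthetases make the messenger that activates RNase L, and they did not move together. OAS1 read 0.534, 0.251, 0.333 and 0.383 CPM in siNTC5 and 1.38, 1.11, 1.10 and 1.48 CPM after HNRNPK siRNA, a log2 change of 1.77 ± 0.34 (SE; adjusted p = 0.000131, edgeR). These levels rest on few counts per library, and no siNTC5 library reached the filter limit, so the gene had to be higher to be tested. OAS3, the next gene on chromosome 12, went the other way, from 83.6, 105, 77.7 and 79.7 CPM to 54.4, 50.6, 38.3 and 41.6 CPM. Its log2 change was -0.91 ± 0.07 (SE; adjusted p = 1.1e-09, edgeR), every depleted library was below every control, and it was the only tested member to fall. OASL, an OAS-like protein without synthetase activity, rose by 0.63 ± 0.13 on the log2 scale (SE; adjusted p = 0.000292, edgeR). OAS2, which lies beyond OAS3 in the same cluster, had too few counts to test, at 0.293 ± 0.10 CPM (SD, n = 4) against 0.347 ± 0.21 CPM (SD, n = 4).

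ISG15 is attached to other proteins by HERC5 and removed from them by USP18. ISG15 read 24.2, 12.7, 24.8 and 22.7 CPM in siNTC5 and 12.4, 12.1, 38.3 and 30.4 CPM after HNRNPK siRNA. The TruSeq values after HNRNPK siRNA were the lowest and the Ligation values the highest of all 8, and the pooled log2 change was 0.04 ± 0.19 (SE; adjusted p = 0.865, edgeR). Without siNTC5 replicate 1 it was 0.33 (adjusted p = 0.00526, edgeR). The ligases HERC5 and HERC6, neighbours on chromosome 4, rose by 0.72 ± 0.07 (SE; adjusted p = 4.31e-08, edgeR) and 0.54 ± 0.11 (SE; adjusted p = 0.000269, edgeR) on the log2 scale. Neither overlapped between groups, with HERC5 between 18.2 and 22.1 CPM in siNTC5 and between 28.5 and 38.5 CPM after HNRNPK siRNA. USP18, which also restrains the interferon receptor, was not called, at 7.65 ± 1.09 CPM (SD, n = 4) against 6.88 ± 0.87 CPM (SD, n = 4).

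The membrane proteins that hinder virus entry and release rose in 3 of 4 cases. Of these, IFITM1 and BST2 passed the filter on low counts only through the depleted group, so they had to be high there to be tested. IFITM1, which acts at the cell surface, read 1.48, 0.585, 1.53 and 0.930 CPM in siNTC5 and 3.098, 2.60, 3.29 and 4.12 CPM after HNRNPK siRNA. The groups did not overlap, and the log2 change was 1.58 ± 0.26 (SE; adjusted p = 2.63e-05, edgeR). BST2 (tetherin), which holds budding virus at the membrane, read 1.01, 0.209, 0.999 and 0.602 CPM in siNTC5 and 1.19, 1.78, 1.43 and 1.07 CPM after HNRNPK siRNA. Its groups were close to touching, and the call at a log2 change of 1.04 ± 0.38 (SE; adjusted p = 0.0203, edgeR) was lost in 7 of 17 alternatives. Without siNTC5 replicate 2, its lowest library, BST2 had a log2 change of 0.61 (adjusted p = 0.104, edgeR), without HNRNPK siRNA replicate 2 one of 0.83 (adjusted p = 0.0928), and without replicate 3 one of 1.02 (adjusted p = 0.0510). IFITM3, an entry inhibitor of the endosome, rose by 0.34 ± 0.06 on the log2 scale (SE; adjusted p = 5.24e-05, edgeR), with groups that overlapped across kits and an adjusted p of 0.0558 with no kit term. IFITM2 was not called at 0.10 ± 0.07 (SE), and passed at 0.16 (adjusted p = 0.0201, edgeR) without siNTC5 replicate 1. These copies on chromosome 11 are near-identical in part, so the split of counts between them is uncertain, and IFITM3 also overlaps IFITM3-AS1.

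Among the ADP-ribosylation genes on chromosome 3, PARP9 rose by 0.30 ± 0.09 (SE; adjusted p = 0.00531, edgeR) and PARP14 by 0.20 ± 0.06 (SE; adjusted p = 0.00431, edgeR) on the log2 scale. Their partner DTX3L, a ubiquitin ligase that binds PARP9, stood at a log2 change of -0.17 ± 0.07 (SE; adjusted p = 0.0519, edgeR), and passed without siNTC5 replicate 2 (-0.19, adjusted p = 0.0409) and without HNRNPK siRNA replicate 2 (-0.23, adjusted p = 0.0173). PARP9 and DTX3L start next to each other and overlap in RefSeq, so their values depend on strand. SAMD9, a restriction factor of poxviruses, was at 19.0 ± 1.11 CPM in siNTC5 and 27.8 ± 1.31 CPM after HNRNPK siRNA (SD, n = 4 each) and rose on the log2 scale by 0.55 ± 0.08 (SE; adjusted p = 4.11e-06, edgeR). Its neighbour and paralog SAMD9L had at most 0.178 CPM in any of the 8 libraries and was not tested.

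The nuclease ISG20, which degrades RNA, read 4.15, 3.97, 6.40 and 6.29 CPM in siNTC5 and 8.44, 10.1, 13.4 and 13.5 CPM after HNRNPK siRNA. It was higher in Ligation than in TruSeq libraries in both groups, and the depleted libraries were above all controls, at a log2 change of 1.13 ± 0.11 (SE; adjusted p = 5.26e-08, edgeR). CMPK2, a mitochondrial nucleotide kinase, and TRIM22, an antiviral TRIM protein, were not called, at log2 changes of -0.34 ± 0.32 (SE) and 0.18 ± 0.26 (SE). RSAD2 (viperin), which overlaps CMPK2 in RefSeq, had no count in the 4 siNTC5 libraries and 2, 4, 1 and 1 counts after HNRNPK siRNA. Against a floor of 3 counts over the control group, its summed level was 3.75-fold higher. This rests on 8 counts in all, whose own counting error is not included, and RSAD2 was too low to test.

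IFI44, a cytoplasmic protein induced by interferon, read 0.415, 0.376, 0.866 and 0.547 CPM in siNTC5 and 2.44, 2.15, 2.19 and 2.23 CPM after HNRNPK siRNA. The log2 change of 2.08 ± 0.28 (SE; adjusted p = 2.68e-06, edgeR) was measured on a gene that reached the filter limit in 1 of 4 siNTC5 libraries and in all 4 depleted ones. Its paralog and neighbour on chromosome 1, IFI44L, had counts in 2 of 4 siNTC5 libraries, at 0.0666 and 0.0547 CPM, and none after HNRNPK siRNA. IFI6, a small mitochondrial protein, overlapped between groups at 2.66 ± 1.05 CPM (SD, n = 4) and 2.74 ± 0.46 CPM (SD, n = 4). The dynamin-like GTPase MX1 was not called at a log2 change of -0.76 ± 0.42 (SE; adjusted p = 0.112, edgeR). Without HNRNPK siRNA replicate 4 it passed at -1.16 (adjusted p = 0.0383, edgeR). MX2, XAF1, which promotes apoptosis, and the chemokine CXCL10 were too low to test, CXCL10 with counts in 1 of the 8 libraries.

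The upstream genes of the pathway were examined as a list of 41, of which 31 were tested and 19 (61.3%, against 71.5% of all tested genes) called, 12 higher and 7 lower. Of the receptor chains, IFNAR1 was not called at -0.02 ± 0.06 (SE) and IFNLR1 was not called at -0.07 ± 0.07 (SE) on the log2 scale. IFNAR2 fell by 0.38 ± 0.10 (SE; adjusted p = 0.00238, edgeR), with groups that overlapped. Within the TruSeq libraries its log2 change was -0.21 (adjusted p = 0.216, edgeR) and within the Ligation libraries -0.57 (adjusted p = 1.74e-05, edgeR). IL10RB, which IFNLR1 needs as a partner chain, read 25.1, 25.1, 29.0 and 27.3 CPM in siNTC5 and 9.49, 8.62, 8.60 and 8.32 CPM after HNRNPK siRNA, a log2 change of -1.59 ± 0.09 (SE; adjusted p = 1.8e-11, edgeR). The endosomal RNA sensor TLR3 was at 1.503 ± 0.18 CPM in siNTC5 and 3.19 ± 0.30 CPM after HNRNPK siRNA (SD, n = 4 each) and rose on the log2 scale by 1.08 (adjusted p = 8.57e-05, edgeR). IFNB1, IFNL1 and IFNG had no count in any of the 8 libraries. IFNE, an epithelial type I interferon, had 6 to 30 counts in each and was not called, and IFNK had at most 2 counts.

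Of 52 further interferon-stimulated genes, 36 were tested and 22 (61.1%, against 71.5% of all tested genes) called, 13 higher and 9 lower. APOL6, an apolipoprotein L family member, was at 1.30 ± 0.20 CPM in siNTC5 and 8.37 ± 1.33 CPM after HNRNPK siRNA (SD, n = 4 each) and rose on the log2 scale by 2.68 (adjusted p = 1.11e-10, edgeR). LGALS9, which encodes galectin-9, rose from 1.29 ± 0.34 to 5.85 ± 0.52 CPM (SD, n = 4 each), and CD274, which encodes the checkpoint ligand PD-L1, from 2.85 ± 0.087 to 6.49 ± 0.56 CPM (SD, n = 4 each). With GBP3, a guanylate-binding GTPase, and IFI35 these were the 5 genes of the list with a rise of at least 1 on the log2 scale. SLFN5 fell by 1.42 ± 0.10 on the log2 scale (SE; adjusted p = 3.62e-10, edgeR). The giant ubiquitin ligase RNF213 and TYMP, thymidine phosphorylase, fell by 1.01 ± 0.06 and 1.00 ± 0.14 on the log2 scale (SE; adjusted p = 1.92e-11 and 2.35e-06, edgeR). EIF2AK2, the kinase PKR, rose by 0.17 ± 0.05 on the log2 scale (SE; adjusted p = 0.00455, edgeR). The median log2 change was 0.10 over the 36 genes and -0.02 over the 31 pathway genes.

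Whether the response differed between the library kits was tested as an interaction of kit and treatment in edgeR. None of the 30 members passed an adjusted p of 0.05, against 18 of all 13933 genes (0.129%), and 3 members had an unadjusted p under 0.05. The DESeq2 Wald test called 0 of the 9 members for which it gave an adjusted p and gave none for ISG15 (unadjusted p = 0.0241), so it does not bear on that gene. ISG15 came closest, at a log2 change of -0.56 within the TruSeq libraries and 0.53 within the Ligation libraries, a difference of 1.09 (adjusted p = 0.129, edgeR). Its call depended on the setting: the adjusted p was 5.13e-07 with no filter on low counts and 2.64e-09 without siNTC5 replicate 2, where IFITM3 passed too (adjusted p = 0.00376). Each kit alone gave 17 and 20 called members for TruSeq and Ligation. The share of all genes called within each kit was not counted, so these counts do not set the members apart. Among called members the largest gap in size was in IFI44, with log2 changes of 2.54 and 1.65. BST2 passed within neither kit, PARP14 missed within TruSeq (adjusted p = 0.0769) and PARP9 within Ligation (adjusted p = 0.0503).

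**Figure D3:**
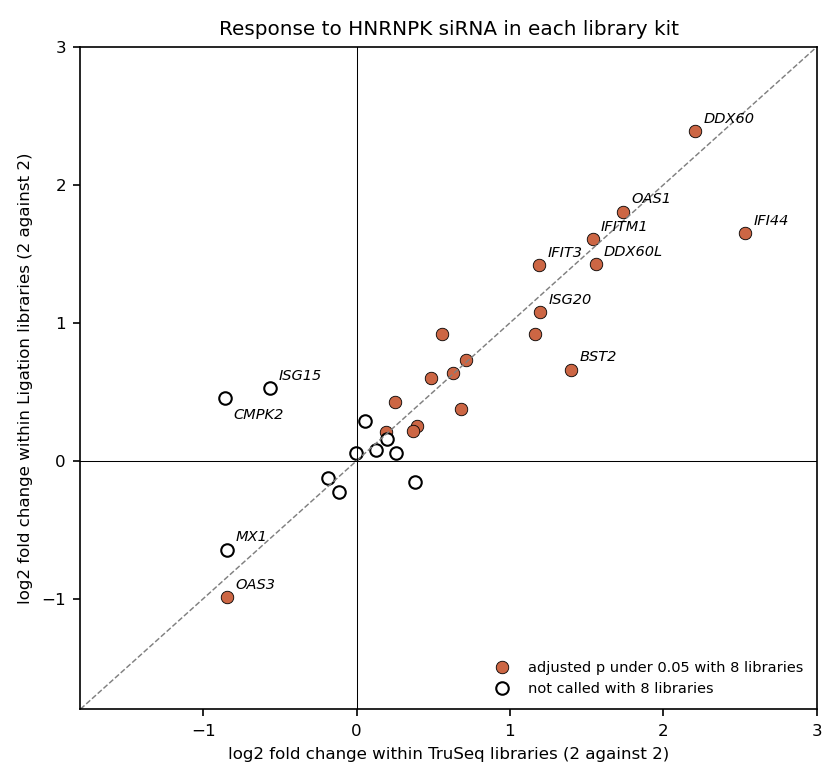
Log2 changes of the 30 tested members within the TruSeq libraries (x axis) and within the Ligation libraries (y axis), 2 against 2 in each, with a dashed line of equality; filled points were called with all 8 libraries. ISG15 (-0.56 and 0.53) and CMPK2 (-0.86 and 0.46) lie in the upper left part, and all 19 called members have the same sign in both kits.

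The level of some members also differed between kits within a treatment. In the same fit 6 members were called for kit (20% of those tested, against 28.5% of all genes): ISG15, ISG20, IFITM3 and HERC5 were higher in the Ligation libraries and OAS3 and IFIT5 lower. For ISG15 the kit difference was 0.90 on the log2 scale (adjusted p = 0.0017, edgeR).

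The Scramble libraries gave a separate view of the baseline. On names shared by the tables, 22 of 33 tested members differed between Scramble and siNTC5 (66.7%, against 68.6% of 14263 genes), 15 higher (35.1% of all genes) and 7 lower (33.5% of all genes) in Scramble. Without IRF9, IFI27, IRF7 and OAS1, which had at most 10 counts in every siNTC5 library, 19 of 29 members differed (65.5%), 12 higher and 7 lower. The share of all genes after that exclusion was not counted. The siRNA, the purification kit, the depth and the counting table all differ with this comparison and cannot be told apart. IFITM1 was at 11.9 and 11.1 CPM in Scramble, above its values after HNRNPK siRNA, and differed from siNTC5 by 3.52 ± 0.27 (SE; adjusted p = 1.9e-07, edgeR) on the log2 scale. ISG20, IFI6, BST2, ISG15, IFITM3 and IFITM2 were also at least 1 higher on the log2 scale in Scramble. IRF1 stood at 28.6 and 28.9 CPM in Scramble, against 29.1 to 34.4 CPM after HNRNPK siRNA on the same scale. Its log2 change against siNTC5 was 0.44 (adjusted p = 0.0034, edgeR). OASL stood at 7.49 and 6.57 CPM, against 5.73 to 8.25 CPM after HNRNPK siRNA. Its log2 change was 0.38 (adjusted p = 0.0468, edgeR), a call lost in 9 of 12 alternatives. DDX60, at 13.6 and 12.2 CPM, and DDX60L, at 57.0 and 62.2 CPM, were instead lower in Scramble than in siNTC5, and OAS3 was lower too, at 54.0 and 52.1 CPM. BST2 lost this call without siNTC5 replicate 2 (log2 change 0.60, adjusted p = 0.254, edgeR) and without either Scramble library (adjusted p = 0.0524 and 0.0575). IFI44, OAS1, IFIT2, IFIT3 and SAMD9, which rose after HNRNPK siRNA, were not called in this comparison, though IFIT3 passed without siNTC5 replicate 1 (log2 change 1.05, adjusted p = 0.0318).

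The result for some members changed when the Scramble libraries were added to the controls, and the cause was not tested. With Scramble among the controls, 15 members were called against 19 without it. The share of all genes called in that fit was not counted. IFITM1 then had a log2 change of 0.01 (adjusted p = 0.995, edgeR), ISG20 one of 0.60 (adjusted p = 0.21), BST2 one of 0.50 (adjusted p = 0.41) and PARP9 one of 0.18 (adjusted p = 0.252). IFITM3 turned to -0.05 (adjusted p = 0.908). DDX60, DDX60L, IFI44, OAS1, IFIT2, IFIT3, the ligase genes HERC5 and HERC6, STAT2, IRF1, OASL, SAMD9 and OAS3 held their calls and directions here and in each other fit whose filter kept them. Of these, IRF1 and OASL were themselves called higher in Scramble than in siNTC5, and DDX60, DDX60L, STAT2 and OAS3 lower. When a log2 change of at least 1 was required as well, STAT2, IRF1, HERC5, HERC6, OASL, SAMD9 and OAS3 were no longer called.

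**Figure D4:**
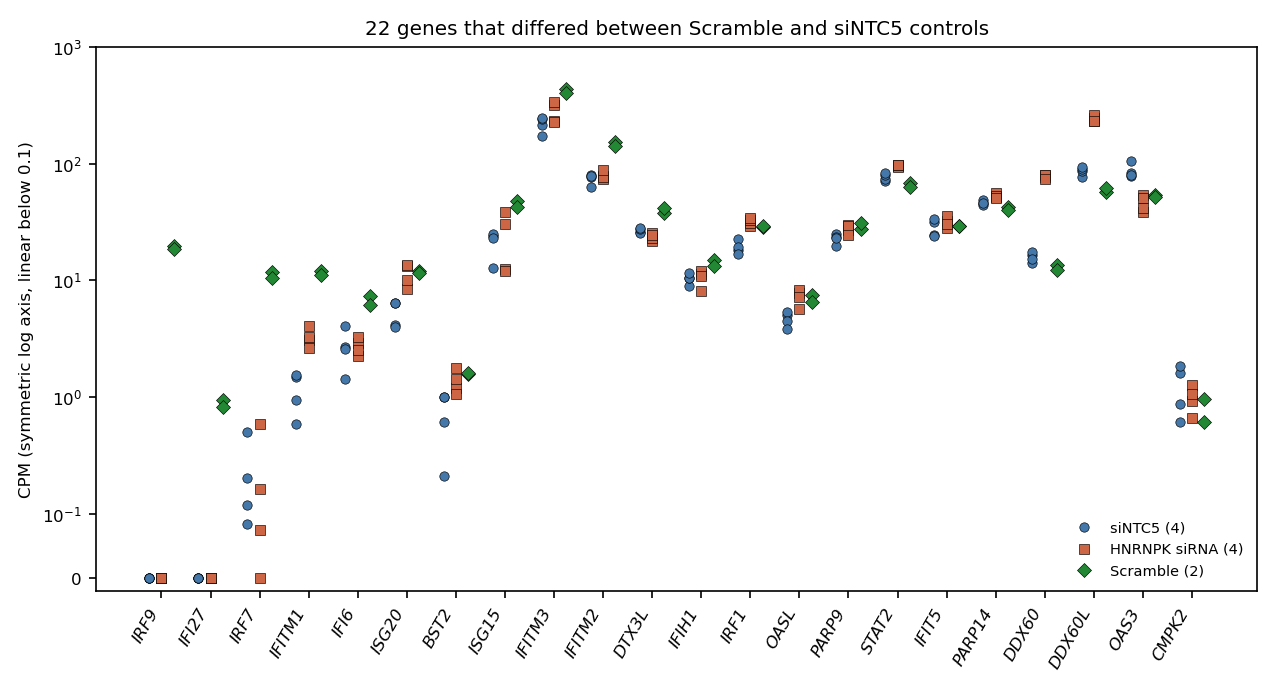
CPM on a common scale over 10 libraries (symmetric log axis, linear below 0.1) for the 22 members that differed between Scramble and siNTC5, ordered by that difference, with siNTC5 as circles, HNRNPK siRNA as squares and Scramble as diamonds. IRF9 and IFI27 are at 0 in all 8 libraries of the knockdown comparison, and DDX60 and DDX60L stand high in the HNRNPK siRNA libraries alone.

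The 2 members at 0 in all 8 libraries were counted in Scramble, so these zeros cannot be read as absence. IRF9 had 987 and 851 counts in the Scramble libraries, and IFI27, a small mitochondrial protein, had 47 and 38. The neighbourhood behaved alike: all 10 genes within 50 kb of IRF9 with at least 30 counts in both Scramble libraries had at most 10 counts in each of the 8 others. PSME1, which encodes a proteasome activator subunit, had 5974 and 5332 counts in Scramble and 0 in all 8, and RNF31 had 3277 and 3039 against 0. The same held for 3 of 3 such neighbours of IFI27, including DDX24 with 11000 and 10755 counts in Scramble, and for 1 of 6 around IRF7, which had 587 and 487 counts in Scramble. Over all shared names, 643 of 12954 genes with at least 30 counts in both Scramble libraries (4.96%) had at most 10 in each of the 8. The antigen presentation genes HLA-E and TAP1 were among them, with 14184 and 3375 counts in Scramble 1. The cause was not tested.

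Chromatin was described by 7 lists of called domains, 1 for each antibody and siRNA, for lamin B1, part of the meshwork under the nuclear envelope, and the repressive marks H3K9me2, H3K9me3 and H3K27me3. A member was counted in a domain when at least 50% of its gene body lay inside. The labels number the ChIP replicates 1 to 3 for lamin B1, H3K9me2 and H3K9me3, and 1 and 2 for H3K27me3, with inputs. There is 1 list for each antibody and siRNA and none for each replicate, so the values are descriptions of single calls with no test. In control cells IFI44 and CMPK2 lay in lamin B1 domains. These were 2 of 40 members (5%), against 13.0% of 26998 named genes with a position and 2.96% of tested genes. After HNRNPK siRNA 0 of 40 members did, against 9.23% of named and 2.57% of tested genes. IFI44 (chr1:78649789-78664078) had 98.5% of its body inside a domain of 355 kb in control cells and 0 after HNRNPK siRNA, and its RNA rose. That domain began at chr1:78650001, so IFI44 lay at its border and the start of the gene was outside it. CMPK2 had 100% against 0, and its RNA was not called. It too lay near a border, with its end at chr2:6866635 and the end of the domain at chr2:6870000.

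H3K9me3 domains held 4 members in control cells (10%, against 9.43% of named and 2.94% of tested genes) and 9 after HNRNPK siRNA (22.5%, against 13.3% of named and 5.90% of tested genes). OAS1, DDX60L, SAMD9, SAMD9L and XAF1 were the 5 that were inside after HNRNPK siRNA alone. Neighbouring members shared domains there: OAS1 with OAS2 and OAS3, SAMD9 with SAMD9L, and CMPK2 with RSAD2. Fewer domains than members therefore lie behind these shares. On chromosome 12 a control domain of 75 kb, chr12:112955001-113030000, covered OAS2 and 52.5% of OAS3, and after HNRNPK siRNA a domain of 165 kb, chr12:112880001-113045000, covered OAS1, OAS3 and OAS2 whole. Within that domain OAS1 RNA rose and OAS3 RNA fell, and DDX60L and SAMD9 RNA rose where H3K9me3 domains were called over them. H3K27me3 domains held 12 members (30%) with either siRNA, against 22.7% and 20.9% of named genes and 9.84% and 8.41% of tested genes. They were ISG20, MX1, MX2, OAS1, OAS2, OAS3, SAMD9, SAMD9L, CMPK2, RSAD2, XAF1 and TRIM22 both times. The same neighbours, and MX1 with MX2, again shared domains, so members outnumber domains here as well. H3K9me2, listed for control cells, held CMPK2, 1 of 40 members (2.5%), against 9.07% of named and 1.201% of tested genes. STAT2, IRF1, the IFIT and IFITM genes, ISG15 and BST2 were under 50% covered in all 7 lists.

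**Figure D5:**
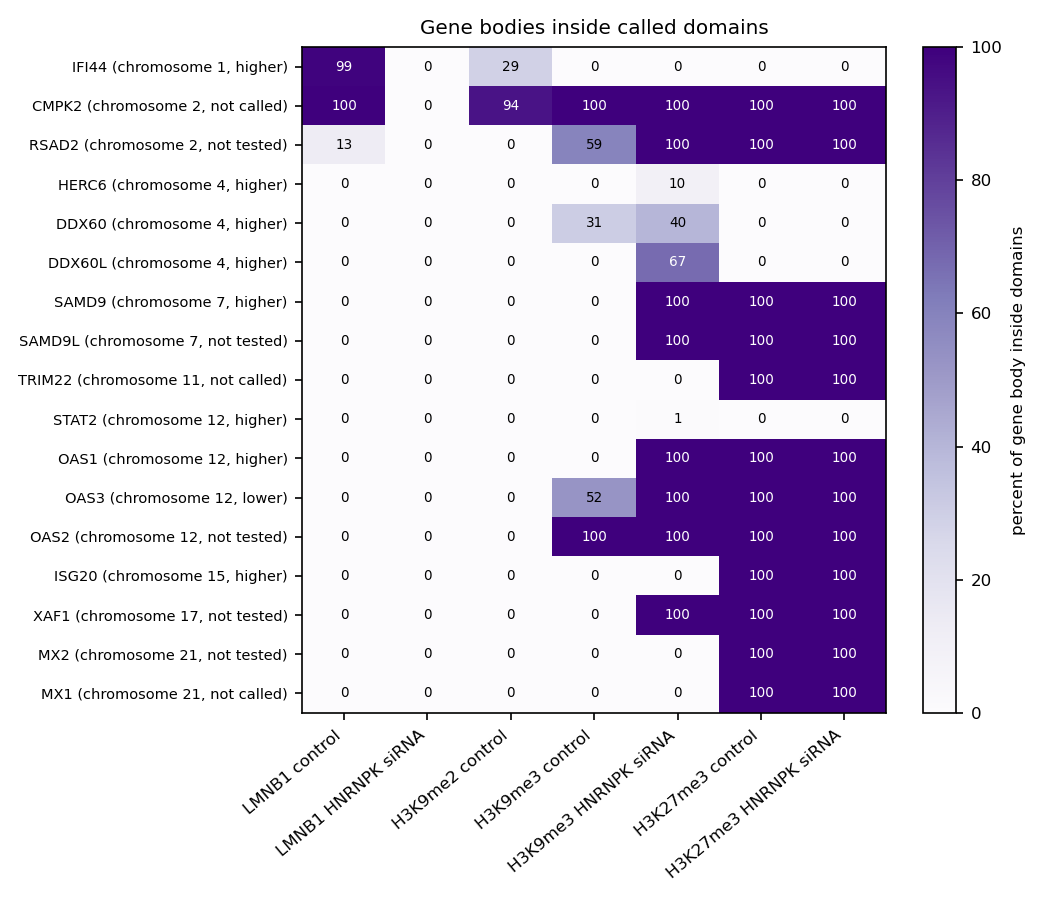
Percent of each gene body (colour and printed number) inside the domains of 7 lists (columns) for the 17 members with any coverage (rows, in chromosome order, each with its RNA call after HNRNPK siRNA). The lamin B1 column for HNRNPK siRNA is 0 throughout, and the H3K9me3 column for HNRNPK siRNA has more filled rows than that of the control.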

How the data were processed

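RNA was counted in 10 libraries of HCT116 cells. The authors deposited raw counts by gene symbol, the 8 libraries of the knockdown comparison in 1 table and each Scramble library in its own, and all rows named a gene. Per the submitters' processing notes, STAR 2.7.1a and featureCounts (Subread 2.0.6 for the 8 libraries) were used on hg38, with hg19 named as well for the Scramble libraries; the annotation and strand counted are not given in the sources used here. The deposited domain lists carry a score per domain that was not used; the notes name hg38, Bowtie2 2.5.1, fastp 0.23.2, bcl2fastq 2.20 and deepTools 3.1.3, and the domain caller and input handling are not given in the sources used here.

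The counts were fitted over all genes in edgeR 4.0.16 (limma 3.58.1, R 4.3.3) with filterByExpr by treatment, TMM scaling and the quasi-likelihood test in a model of kit and treatment, with Benjamini-Hochberg adjustment over all tested genes and a threshold of 0.05. CPM are TMM-scaled, SD is over n = 4 libraries, and SE is the log2 fold change over the root of its F statistic. Scramble was compared with siNTC5 on 25527 shared names. A count of 0 allows up to 3 counts, 0.125 to 0.253 CPM in the 8 libraries, which covers counting error alone. The steps were tested on simulated data. Same-numbered libraries of the 2 groups deviated together: across genes, which are not independent replicates, r was 0.130, 0.488, 0.400 and 0.321 for numbers 1 to 4, each over 0.1. For number 4 the best match was a library of another number. The numbers share the kit, and with kit and treatment removed these were -0.197, -0.153, -0.295 and -0.263. A response that differs between kits lowers these values by construction, so they cannot decide whether the libraries are paired. The pairing was fitted as an alternative, the replicate block.

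Gene positions and promoter windows came from RefSeq (GRCh38.p14), 42 windows for 32 members; where windows of opposite strands overlapped, 2767 pairs matched as complements and 0 did not. Members without a window were left out of the motif counts. All members are described by role. Library values are given for members with an adjusted p under 0.05 and a log2 change of 1 or more in either direction, and for STAT2, IRF9, IRF1 and ISG15; OAS3 was added after its values were seen. From the other lists, genes past the same limits were named, with IFNB1, IFNAR1, IFNAR2, IFNLR1 and EIF2AK2; the remaining names were chosen after their values were seen, and 1 further gene named by this rule is not reported here. The members and lists were chosen with earlier results of these data known. Alternatives were other size factors, the Wald test of DESeq2 1.42.0, other filters, no kit term, each kit alone, Scramble as added controls, a minimum fold change and each library left out. The counts without members that passed a filter through 1 group or had few counts in siNTC5 were added after seeing the data. Figures were made in Python 3.11.15 with matplotlib 3.10.9.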

Additional observations from a re-analysis of the deposited data

Results flagged for a closer look

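In 60 sets of 4 libraries examined, 1 library stood far from the other 3 by Dixon's criterion at the 95% level in 3 cases, and chance alone gives about 1 in 20. IFIT2 was at 1.46 CPM in siNTC5 replicate 2, where the nearest control was at 1.90 CPM. IFITM2 was at 62.8 CPM in the same library, where the nearest was at 77.2 CPM. SAMD9 was at 17.3 CPM in siNTC5 replicate 3, where the nearest was at 19.5 CPM. IFIT2 and SAMD9 kept their calls without these libraries.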

How the results depend on the processing

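Of the 19 called members, 13 kept their direction and their call in each other fit whose filter kept them, and BST2, IFITM1, IFITM3, ISG20, PARP14 and PARP9 did not. With a log2 change of 1 or more required in either direction, 9 members, 2 pathway genes and 8 of the further interferon-stimulated genes were called. With the Scramble libraries added to the controls, 11 pathway genes were called and IFITM3 turned to -0.045. With no kit term, IFIT5 turned to 0.0047 in Scramble against siNTC5. For the kit interaction, 1 member was called with no filter on low counts, and leaving out single libraries gave between 0 and 2. The replicate block in place of kit called 19 members and changed no call named here. H3K9me2 domains of control cells held 2 members at any overlap, and H3K9me3 domains of control cells held 2 at 80% of the gene body. The cause of these changes was not tested, apart from the stricter limits, which by construction leave fewer. Members under about 1 CPM rest on few counts, so differences in OAS2, MX2, SAMD9L, XAF1, IFI44L and CXCL10 were not detectable at this depth.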
